A study of Mus musculus with 6 samples.

Results

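The cytochrome P450, UDP-glucuronosyltransferase, sulfotransferase, carboxylesterase and aldehyde dehydrogenase genes were followed in RNA sequencing of oesophageal squamous cell carcinomas from C57BL/6 mice. Members were taken by symbol: Cyp followed by a family number, a letter and a number, and symbols beginning with Ugt1 to Ugt3, Sult, Ces or Aldh and a number, without pseudogenes and without Cyp51. This gave 170 of the 41253 symbols with summed counts: 93 Cyp, 20 Ugt, 18 Sult, 19 Ces and 20 Aldh genes. The 2 groups were 3 tumours labelled Ptpro-KO, genotype Ptpro-/-, which by label lack the receptor tyrosine phosphatase gene Ptpro, and 3 tumours labelled WT, with 1 library each; they are called Ptpro-KO-labelled and WT-labelled throughout. All 6 mice had drunk the carcinogen 4NQO for 16 weeks, starting at 6 weeks of age and at a labelled 100 mg/mL, with 12 weeks of follow-up unless weight loss came first. The design text gives an age of 34 weeks, while a tag on every sample gives week 6. The sources used here do not say how the Ptpro allele was made. The Ptpro-KO-labelled libraries held 35551442, 39827467 and 35845461 reads, and the WT-labelled libraries 37595506, 25745240 and 29406034.

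These enzymes modify fat-soluble compounds in steps. P450 enzymes add oxygen to drugs, carcinogens, sterols, retinoids and fatty acids, with electrons from the reductase Por; carboxylesterases cut esters and aldehyde dehydrogenases oxidise reactive aldehydes to acids. UDP-glucuronosyltransferases and sulfotransferases then attach a sugar acid or a sulfate. The liver is the best known site of these genes, but stratified epithelia carry their own set, in part for the lipids of the surface barrier and for retinoic acid, which controls the fate of squamous cells.

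The libraries did not follow their labels at Ptpro, and several carried markers of other tissues. Ptpro had 30.3, 42.8 and 50.6 CPM (reads relative to the scaled library size) in Ptpro-KO-labelled tumours, against 5.05, 0.359 and 2.39 CPM in WT-labelled tumours. The gene named as deleted was thus higher in every library labelled as lacking it (edgeR adjusted p = 0.0617, not past 0.05), so every direction here is between libraries as labelled. The 8 squamous markers summed to between 12090 and 19630 CPM in Ptpro-KO-labelled tumours and between 36470 and 46100 CPM in WT-labelled tumours, with 4 of the 8 lower by the test. The 4 markers of single-layered epithelium summed to between 757.5 and 1442 CPM against 33.4 to 79.7 CPM, all 4 higher by the test. Fibroblast markers summed to between 1252 and 2041 CPM against 198 to 899 CPM, with 2 of 5 higher by the test. Stomach markers summed to 16410 CPM in Ptpro-KO replicate 3 and to at most 28.2 CPM in any other library, with all 8 detected in that library and Pgc, Gkn2 and Atp4b at 0 in each WT-labelled tumour. Thyroid markers summed to 787 CPM in Ptpro-KO replicate 2, of which Tg made 774 CPM, and to at most 30.2 CPM elsewhere. The sums of 5 adipocyte and 5 skeletal muscle markers varied within both labels, the adipocyte sum being 190, 3.89 and 83.5 CPM against 1.65, 0.199 and 159 CPM. The 7 liver markers summed to 22.6, 0.516 and 83.4 CPM against 10.9, 0.159 and 0.641 CPM, and Alb, the main protein of liver, had at most 15.4 CPM. The 5 small intestine markers summed to 4.68, 0.680 and 175.5 CPM against 2.23, 0.518 and 0.819 CPM. Sex was called by whether Xist or Y-linked genes had more reads. This gave 2 females and 1 male among Ptpro-KO-labelled tumours, and 1 female and 2 males among WT-labelled tumours. Libraries called female also held between 3064 and 3911 Y-linked reads, against 8590 to 15091 in those called male. Libraries called male had 11 to 54 Xist reads. The source of the Y-linked reads in libraries called female was not tested.

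Of the 170 members, 156 had at least 1 read, 83 passed the filter on low counts and were tested, and 87 were not tested. Past an edgeR adjusted p of 0.05, 2 members rose and 7 fell in Ptpro-KO-labelled tumours. These 9 are 10.8% of the members tested, where 4.10% of all 17663 genes tested were called. The 2 higher members, Cyp1b1 and Cyp26a1, make 2.41%, against 1.81% of all genes. Cyp26a1 passed the filter only through the Ptpro-KO-labelled tumours. The 7 lower members, 8.43% against 2.29% of all genes, were the fatty acid hydroxylases Cyp4f39 and Cyp4a10, the carboxylesterase Ces2f, the aldehyde dehydrogenase Aldh3b2 and the glucuronosyltransferases Ugt1a2, Ugt1a6b and Ugt1a7c. The Ugt1a symbols belong to 1 locus, share exons 2 to 5 and are not separate observations, so these shares count that locus repeatedly. With Ugt1a symbols summed, 2 members were higher and 5 lower of 78 tested. The shifts of squamous, single-layered epithelial and fibroblast markers given above ran beside all 9 calls, and their part in them was not tested. Fewer cells of a type and less RNA per cell cannot be told apart in these bulk tumours.

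All 3 values of one label lay above all 3 of the other in 36 of the 83 tested members, 43.4% against 32.5% of all genes tested. Of these, 11 were higher in Ptpro-KO-labelled tumours (13.3% against 16.8% of all genes) and 25 lower (30.1% against 15.7%). The 25 include 5 symbols of the Ugt1a locus, which are not separate observations. With an added limit of 2-fold, 8 were higher (9.64% against 8.19%) and 20 lower (24.1% against 3.49%). When libraries were scaled by total counts alone, which moved the median log2 fold change of all genes to 0.185, against 0.03 in the reported fit, the split without the fold limit was 17 higher and 22 lower. The median log2 fold change of the tested members was 0.03, with 42 positive and 41 negative. Across all genes, that scaling called 630 higher and 294 lower, against 320 and 405 in the reported fit, while the members' split was 2 and 6.

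**Figure D1:**
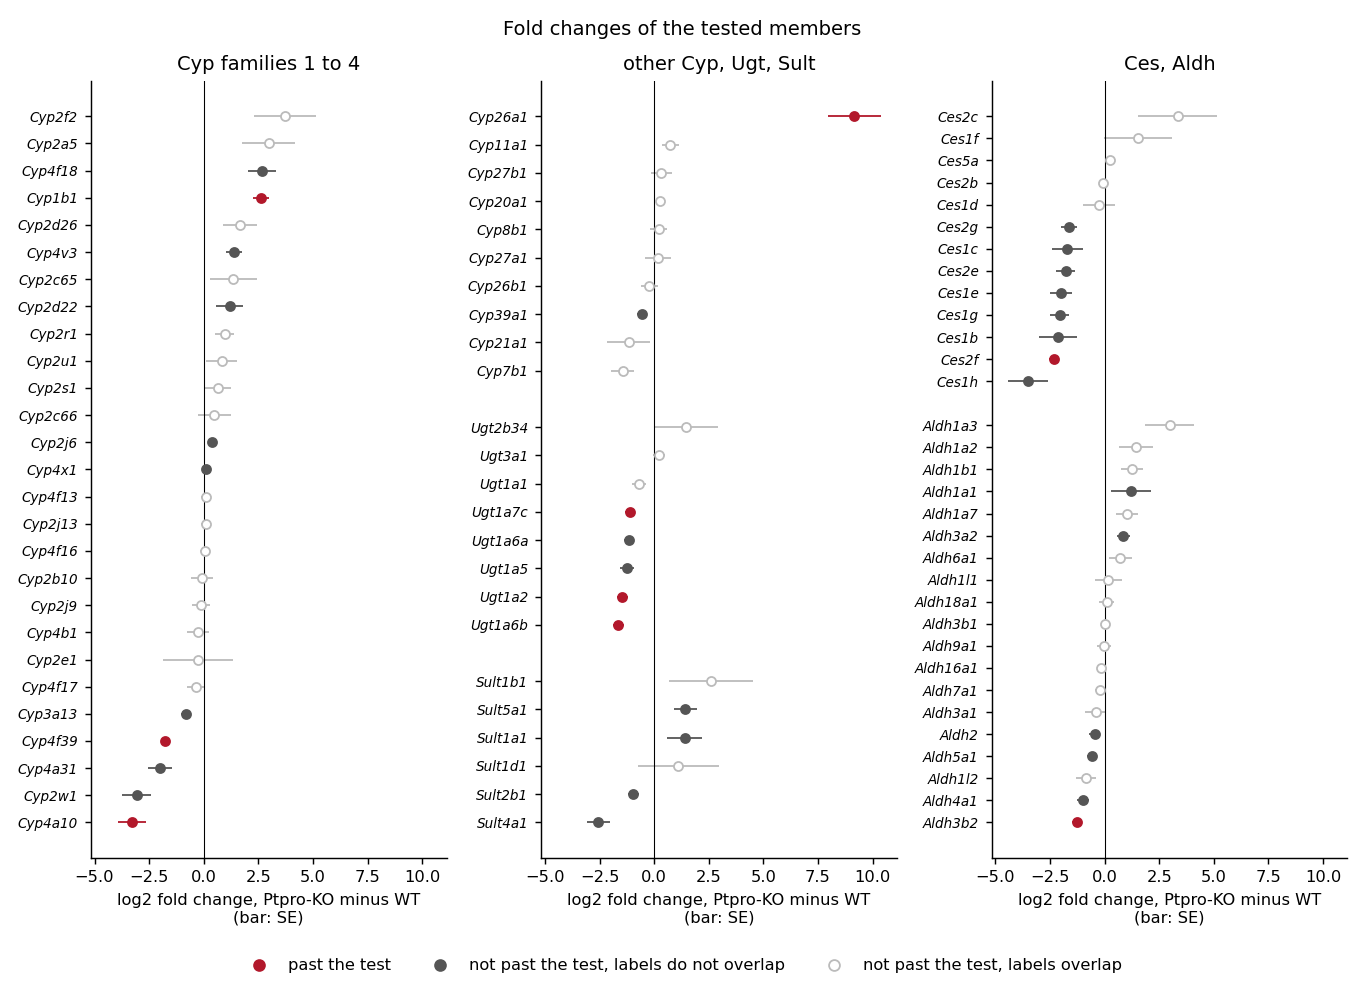
Log2 fold change (Ptpro-KO-labelled minus WT-labelled tumours) of the 83 tested members, by family, with bars for the standard error. Red points are the 9 members past an edgeR adjusted p of 0.05, filled grey points the others whose labels do not overlap, and open points those whose labels overlap; the value of Cyp26a1 is fitted against libraries at 0 reads.

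The calls rested on all 6 libraries. Without Ptpro-KO replicate 2, WT replicate 2 or WT replicate 3, edgeR called 0 of all genes. In those fits 38 of 88, 26 of 92 and 28 of 89 tested members had an unadjusted edgeR p under 0.05. So did 4363 of 18155, 3369 of 18353 and 3078 of 18323 of all genes tested. Without Ptpro-KO replicate 1 the call of Cyp4f39 held (adjusted p = 0.0498). Without Ptpro-KO replicate 3, the library with stomach markers, those of Cyp4f39, Ces2f, Cyp1b1 and Aldh3b2 held (adjusted p = 0.0240, 0.0286, 0.0433 and 0.0417 by edgeR). Without WT replicate 1 those of Cyp4f39, Ces2f and Ugt1a7c held (0.0464, 0.0459 and 0.0492). With sex, as called above, as a term in the fit, 0 members were higher and 2 lower, Cyp4f39 and Ces2f. Of all 17663 genes tested, 64 were higher and 122 lower in that fit. DESeq2 called all 9, among 6 higher and 22 lower of 83 tested members. It called far more genes throughout, 1682 higher and 1478 lower of 17663, against 320 and 405 by edgeR.

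**Figure D2:**
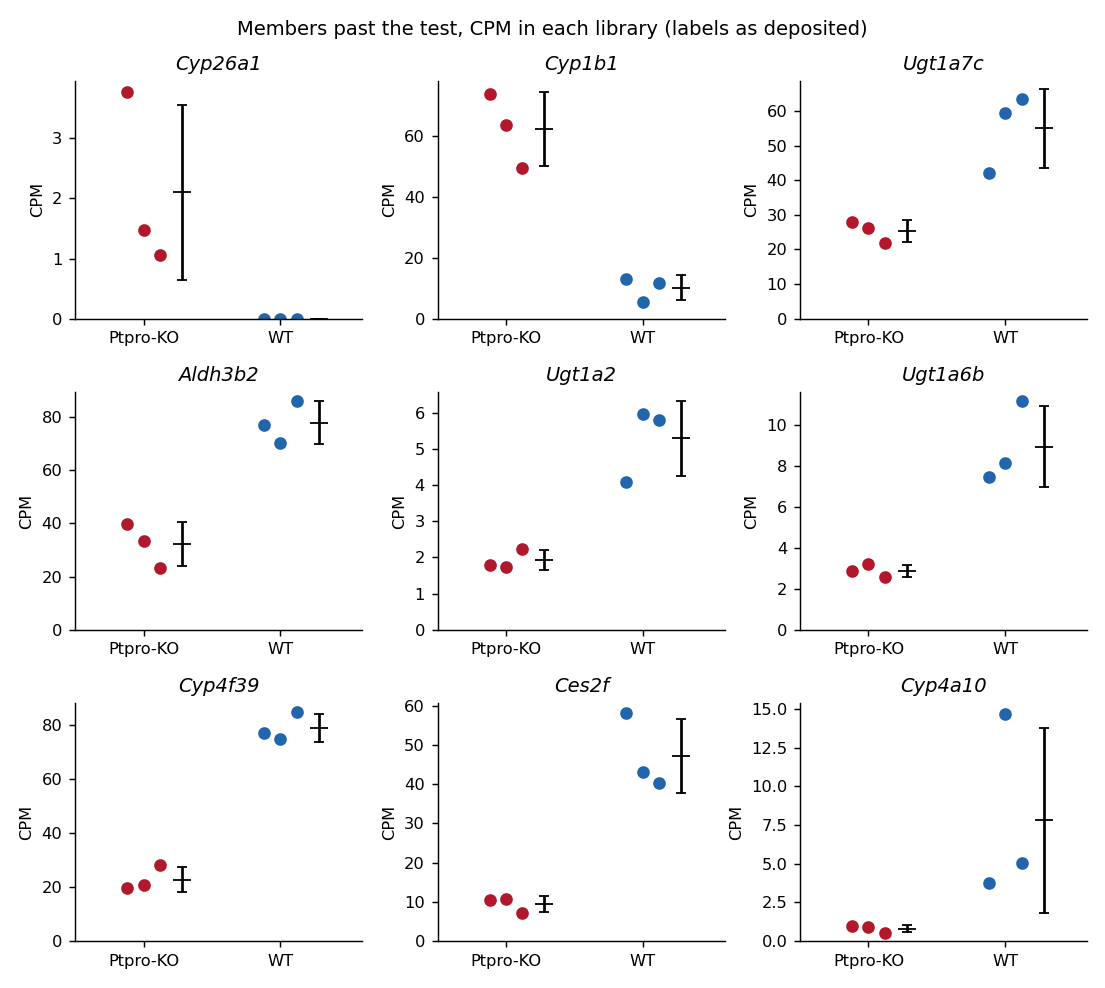
CPM of the 9 members past the test in each library, on an axis from 0 in every panel. Red points are Ptpro-KO-labelled tumours and blue points WT-labelled tumours, with the mean and SD (n = 3) in black beside them; the labels do not overlap in any panel, and Cyp26a1 has no read in WT-labelled tumours.

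The 2 members that rose handle planar aromatic compounds and retinoic acid. Cyp1b1, a P450 outside the liver that oxidises oestradiol and polycyclic aromatic hydrocarbons, had 73.7, 63.5 and 49.4 CPM in Ptpro-KO-labelled tumours, against 13.1, 5.54 and 11.8 CPM in WT-labelled tumours. The lowest Ptpro-KO-labelled tumour lay far above the highest labelled WT. The means were 62.2 ± 12.2 and 10.2 ± 4.05 CPM (SD, n = 3 each), a 6.13-fold difference (log2 fold change 2.61, SE 0.36, adjusted p = 0.0277 by edgeR). The call held without Ptpro-KO replicate 3 and was lost without any other library (0.0565 to 0.135). No 50-base stretch of its transcript occurs in another gene. The sum of the fibroblast markers, given above, was also higher in Ptpro-KO-labelled tumours, although Dcn and Lum overlapped between labels. The part of fibroblasts in Cyp1b1 was not tested.

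Cyp26a1, which degrades retinoic acid and is known to be switched on by it, was detected under 1 label. It had 136, 63 and 40 reads (3.76, 1.48 and 1.05 CPM) in Ptpro-KO-labelled tumours, and 0 reads in each WT-labelled tumour. Against the limit that 0 reads over the 3 libraries allow (3 reads in all), its mean was at least 61.3-fold higher. That is a limit of read counting alone and leaves out the spread between mice. It passed the filter on low counts through the Ptpro-KO-labelled tumours alone, the group in which it was high. The edgeR adjusted p was 0.0463, and the call was lost without any 1 of the 6 libraries (0.0629 to 0.148). Its level was low, with a mean of 0.613 RPKM (reads relative to transcript length and library total) over the 6 libraries. The authors' FPKM table listed it at 3.01, 1.21 and 0.880 FPKM against 0 in every WT-labelled tumour.

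The regions before the start of these genes, from RefSeq on GRCm38.p6, are shown because the receptors that drive both genes are known by the sequences they bind. Each line gives the 250 bases before the start on the gene's strand: Cyp26a1 at chr19:37697558-37697807 (+), Cyp1b1 at chr17:79715062-79715311 (-) and, for comparison, Cyp1a1 at chr9:57697363-57697612 (+). Capitals mark the direct repeat of retinoic acid receptors in Cyp26a1 (AGTTCA, 5 bases of any kind, AGTTCA) and the core GCGTG of the aryl hydrocarbon receptor AHR in Cyp1b1 and Cyp1a1, on either strand.
Cyp26a1: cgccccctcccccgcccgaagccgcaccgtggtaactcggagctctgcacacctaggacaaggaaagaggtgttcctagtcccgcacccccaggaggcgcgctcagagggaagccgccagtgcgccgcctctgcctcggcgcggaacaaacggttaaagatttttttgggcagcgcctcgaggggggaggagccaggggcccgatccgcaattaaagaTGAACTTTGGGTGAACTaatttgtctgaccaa
Cyp1b1: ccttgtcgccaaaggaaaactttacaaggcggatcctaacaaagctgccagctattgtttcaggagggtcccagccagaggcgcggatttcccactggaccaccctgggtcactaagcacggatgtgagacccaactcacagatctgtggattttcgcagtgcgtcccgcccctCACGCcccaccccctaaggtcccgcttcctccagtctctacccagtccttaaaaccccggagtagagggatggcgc
Cyp1a1: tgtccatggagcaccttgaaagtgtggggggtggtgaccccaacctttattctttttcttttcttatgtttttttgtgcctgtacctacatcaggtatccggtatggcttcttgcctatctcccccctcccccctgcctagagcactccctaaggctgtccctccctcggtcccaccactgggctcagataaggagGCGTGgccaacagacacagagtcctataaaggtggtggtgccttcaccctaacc

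In windows from 250 bases before to 50 after the start, the repeat in exactly these letters was found on either strand in 8 of 32851 RefSeq promoters (0.0244%). Of the 133 members with a promoter in that table, Cyp26a1 was the 1 that held it, beginning 32 bases before the start. The letters searched are those of the Cyp26a1 site itself. Other spellings of the repeat were not searched, so these counts do not cover them. The AHR core is short and common, and lay in 32.4% of all promoters and 18.8% of the members'. Cyp1b1 and Cyp1a1 each held 1, beginning 76 and 54 bases before the start. Cyp1a1, the best known target of AHR, had 23 reads in all in Ptpro-KO-labelled tumours and 23 in WT-labelled tumours, and was not tested. Cyp1a2, its neighbour, had 3 and 1. Of the 3 members of the Cyp1 family, Cyp1b1 was thus the 1 with enough reads to test.

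Retinoic acid is made by Aldh1a1, Aldh1a2 and Aldh1a3 and removed by Cyp26 enzymes. The 3 synthetic enzymes did not pass the test, although Aldh1a3 was among the most abundant members. Aldh1a3 had 1139, 217 and 68.7 CPM in Ptpro-KO-labelled tumours, against 91.9, 66.5 and 22.8 CPM in WT-labelled tumours. Its high mean rested on Ptpro-KO replicate 1, and Ptpro-KO replicate 3 lay within the range of WT-labelled tumours (log2 fold change 2.97, SE 1.12, adjusted p = 0.171 by edgeR). Aldh1a1 had 48.4, 32.5 and 60.7 CPM against 28.3, 1.67 and 31.6 CPM, with no overlap but a wide spread (adjusted p = 0.469). Aldh1a2 had 18.6, 7.72 and 13.6 CPM against 10.7, 1.47 and 2.60 CPM, with overlap. The other tested member that removes retinoic acid, Cyp26b1, had 15.5, 24.98 and 8.99 CPM against 15.3, 25.3 and 17.1 CPM, and its labels overlapped. Rdh10, which makes retinaldehyde from retinol and was chosen after its values were seen, had 43.0, 121 and 29.97 CPM against 21.9, 17.3 and 14.1 CPM, without overlap (log2 fold change 1.86, SE 0.55, adjusted p = 0.112 by edgeR). It is 1 of the 19 tested other oxidation enzymes given below, 12 with positive and 7 with negative fold changes. Among the 7 were Adh7, given below, and Dhrs9. Dhrs9 had 31.9, 17.2 and 51.5 CPM against 72.1, 44.8 and 62.0 CPM, with overlap (log2 fold change -0.83, SE 0.41, edgeR adjusted p = 0.2745).

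Among the Cyp4 fatty acid hydroxylases, Cyp4f39 and Cyp4a10 fell, and of 10 tested members 5 had positive and 5 negative fold changes. Cyp4f39 hydroxylates very long fatty acids, and its human counterpart CYP4F22 serves the skin's ceramide barrier. It had 19.5, 20.7 and 28.02 CPM in Ptpro-KO-labelled tumours, against 77.0, 74.8 and 84.6 CPM in WT-labelled tumours. Values within each label lay close together, and the gap between labels was wide. The means were 22.7 ± 4.63 and 78.8 ± 5.15 CPM (SD, n = 3 each), 3.47-fold lower in Ptpro-KO-labelled tumours (log2 fold change -1.79, SE 0.17, adjusted p = 0.0125 by edgeR). It lies at chr17:32452723-32493320 (+, GRCm38) and shares no 50-base stretch with another gene. Without Ptpro-KO replicate 2, WT replicate 2 or WT replicate 3 its adjusted p was 0.0540, 0.0565 and 0.0804.

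The squamous markers were also lower in Ptpro-KO-labelled tumours, as given above, and their part in the fall of Cyp4f39 was not tested. Cyp4a10, an omega-hydroxylase induced through the fatty acid receptor PPAR-alpha in mouse liver, had 0.996, 0.868 and 0.527 CPM against 3.74, 14.7 and 5.02 CPM. Every WT-labelled tumour lay above all 3 labelled Ptpro-KO, and WT replicate 2 far above the other two (log2 fold change -3.29, SE 0.63, adjusted p = 0.0492 by edgeR), and the call was lost without any 1 library (0.0658 to 0.148). Of its 50-base stretches 30.5% occur in other genes, mainly Cyp4a32. With Cyp4a10, Cyp4a31 and Cyp4a32 summed, a choice made after the data were seen, the log2 fold change was -2.89 (SE 0.59) and the adjusted p 0.0564, past the threshold no longer. Cyp4a31 alone had 0.637, 0.328 and 0.448 CPM against 0.986, 3.35 and 1.42 CPM, also without overlap (adjusted p = 0.0979).

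Other Cyp4 members went the other way without passing the test. Cyp4f18, which in mouse neutrophils inactivates leukotriene B4, had 33.7, 7.32 and 18.2 CPM in Ptpro-KO-labelled tumours, against 4.52, 2.75 and 1.99 CPM in WT-labelled tumours. The labels did not overlap, but Ptpro-KO-labelled tumours spread widely (log2 fold change 2.67, SE 0.63, adjusted p = 0.0736 by edgeR). Cyp4v3, the mouse counterpart of the fatty acid hydroxylase CYP4V2, had 9.41, 14.2 and 11.1 CPM against 5.39, 2.47 and 5.45 CPM (log2 fold change 1.38, SE 0.36, adjusted p = 0.0886). Macrophage markers Csf1r, Mrc1 and Cd68 summed to between 312 and 635 CPM against 45.4 to 169 CPM, with 0 of 3 past the test, and their part in these values was not tested. Cyp4f13, Cyp4f16, Cyp4f17 and Cyp4b1 overlapped between labels.

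Of the large Cyp2 family, 15 of 48 members were tested and 0 were called by edgeR. Of the 15, 11 had positive fold changes, and 3 had labels that did not overlap, as did 32.5% of all genes tested. Cyp2w1, a P450 known from human colorectal tumours, had 0.249, 0.117 and 0.0791 CPM in Ptpro-KO-labelled tumours, against 0.493, 1.83 and 1.46 CPM in WT-labelled tumours. These are 17 reads against 104, and the labels did not overlap (log2 fold change -3.06, SE 0.66, adjusted p = 0.0623 by edgeR). Cyp2s1, an epithelial P450 outside the liver and the most abundant Cyp2 member, had 45.8, 22.1 and 122.9 CPM against 48.3, 31.2 and 43.1 CPM, with the highest value in Ptpro-KO replicate 3 and the lowest in replicate 2. Its log2 fold change was 0.64, and -0.27 without Ptpro-KO replicate 3.

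The Ugt1a genes lie in 1 locus on chromosome 1, where each symbol has its own first exon and all use the same exons 2 to 5. Their joined ends are shown because they set what the counts can tell apart. Each line gives the last 24 bases of the first exon in lower case and, in capitals, the first 24 of exon 2, which lies at chr1:88215044-88215175 (GRCm38, + strand).
Ugt1a1: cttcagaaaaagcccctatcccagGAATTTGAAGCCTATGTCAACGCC
Ugt1a2: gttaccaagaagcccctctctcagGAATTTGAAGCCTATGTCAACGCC
Ugt1a5: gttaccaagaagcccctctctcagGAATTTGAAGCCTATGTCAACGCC
Ugt1a6a: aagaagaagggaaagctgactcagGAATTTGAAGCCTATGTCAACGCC
Ugt1a6b: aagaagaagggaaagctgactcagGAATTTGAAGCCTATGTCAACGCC
Ugt1a7c: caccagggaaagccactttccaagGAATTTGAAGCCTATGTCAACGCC

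Ugt1a2 and Ugt1a5 end their first exons in the same letters, as do Ugt1a6a and Ugt1a6b, so bases within 24 of either junction do not separate the pair. Of the 50-base stretches of Ugt1a6a, 97.7% occur in other genes, and of Ugt1a7c 40.9%. The sources used here do not say how the authors assigned shared reads. Their 2 tables split the Ugt1a6 pair differently: Ugt1a6a held between 93.3% and 96.8% of the pair's CPM in the read counts, but between 41.3% and 52.1% of its FPKM in the gene table. Values of single Ugt1a symbols are therefore uncertain, and the locus as a whole is given first.

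Summed over its 9 symbols, the Ugt1a locus had 98.3, 96.6 and 110.1 CPM in Ptpro-KO-labelled tumours, against 165, 230 and 282 CPM in WT-labelled tumours. Ptpro-KO-labelled tumours were nearly level, while WT-labelled tumours varied and all lay higher. Fitted as 1 gene, a choice made after the data were seen, the locus fell (edgeR adjusted p = 0.0440, log2 fold change -1.15, SE 0.21). In the authors' FPKM table the sum over 8 symbols was 37.5, 36.6 and 41.6 FPKM against 60.5, 86.5 and 104 FPKM.

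All 6 tested Ugt1a symbols had negative fold changes, 5 without overlap, where 15.7% of all genes tested were lower without overlap. As the symbols share exons 2 to 5, they are not separate observations. Ugt1a6a, which conjugates small phenols, was the most abundant, with 60.2, 61.9 and 77.8 CPM against 105, 146 and 190 CPM, and missed the threshold (log2 fold change -1.14, SE 0.24, adjusted p = 0.0593 by edgeR). Ugt1a7c had 27.8, 26.1 and 21.7 CPM against 42.0, 59.5 and 63.5 CPM and fell (log2 fold change -1.12, SE 0.19, adjusted p = 0.0404). The labels were separate in both genes. Ugt1a6b had 2.85, 3.19 and 2.58 CPM against 7.48, 8.17 and 11.2 CPM (log2 fold change -1.64, SE 0.23, adjusted p = 0.0296). Ugt1a2 had 1.80, 1.74 and 2.24 CPM against 4.09, 5.98 and 5.802 CPM (log2 fold change -1.46, SE 0.25, adjusted p = 0.0413). Both of these fell and neither overlapped. Ugt1a5 had 1.91, 1.53 and 2.11 CPM against 2.96, 4.54 and 5.70 CPM (adjusted p = 0.0833), and Ugt1a1, the bilirubin enzyme, overlapped between labels (adjusted p = 0.250). Without 1 library the call of Ugt1a7c held when WT replicate 1 was left out and was otherwise lost (up to 0.157, without WT replicate 3). The calls of Ugt1a6b and Ugt1a2 were lost without any 1 library, with adjusted p between 0.0542 and 0.130 and between 0.0582 and 0.166.

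Of 13 tested carboxylesterases 1 passed the test, while 10 had negative fold changes and 8 were lower without overlap in Ptpro-KO-labelled tumours, where 15.7% of all genes tested were. Their median log2 fold change was -1.70, where that of all genes tested was 0.03. Summed over 19 symbols, Ces genes had 174, 180 and 244 CPM in Ptpro-KO-labelled tumours, against 479, 627 and 520 CPM in WT-labelled tumours. The 8 Ces1 symbols gave 55.7, 53.4 and 54.2 CPM against 208, 302 and 225 CPM, and the 7 Ces2 symbols 109, 117 and 181 CPM against 264, 317 and 287 CPM. No Ptpro-KO-labelled tumour reached the lowest labelled WT in any of these sums.

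Ces2f was the member that passed the test. It had 10.6, 10.8 and 7.06 CPM in Ptpro-KO-labelled tumours, against 58.1, 43.2 and 40.4 CPM in WT-labelled tumours, with a wide gap between labels. The means were 9.48 ± 2.09 and 47.2 ± 9.54 CPM (SD, n = 3 each), 4.98-fold lower (log2 fold change -2.32, SE 0.24, adjusted p = 0.0138 by edgeR). Its call was lost without Ptpro-KO replicates 1 or 2 or WT replicates 2 or 3 (0.0552, 0.0568, 0.0597 and 0.0797). It lies at chr8:104947356-104960047 (+, GRCm38), next to Ces2g at chr8:104961718-104969537 and Ces2e at chr8:104926260-104934672 on the same strand. Ces2g had 35.5, 41.3 and 84.5 CPM against 136, 193 and 168 CPM (log2 fold change -1.62, SE 0.36, adjusted p = 0.0669), and Ces2e 2.10, 2.16 and 5.43 CPM against 9.08, 12.7 and 11.7 CPM (log2 fold change -1.79, SE 0.44, adjusted p = 0.0782). Neither overlapped between labels, and both were highest in replicate 3 among Ptpro-KO-labelled tumours.

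Ces1h, on chr8:93351843-93379725 (-), had the highest RPKM of the carboxylesterases and the most negative log2 fold change of the family. It had 13.5, 31.2 and 2.11 CPM in Ptpro-KO-labelled tumours, against 140, 248 and 146 CPM in WT-labelled tumours. The labels were far apart, but Ptpro-KO-labelled tumours also differed among themselves, with replicate 3 lowest (log2 fold change -3.51, SE 0.93, adjusted p = 0.0921 by edgeR, not past the test). Ces1g and Ces1e, on the same strand, had lower levels and did not overlap between labels either. Ces1g had 4.01, 2.70 and 1.95 CPM against 8.09, 18.4 and 9.65 CPM, and Ces1e 1.11, 2.91 and 4.06 CPM against 8.70, 14.1 and 9.11 CPM, with edgeR adjusted p = 0.0596 and 0.0858 at log2 fold changes of -2.06 and -1.98. Ces1b and Ces1c also did not overlap (log2 fold changes -2.12 and -1.70, adjusted p = 0.197 and 0.211), while Ces1d, which hydrolyses triglycerides in adipose tissue, had 29.1, 7.84 and 16.5 CPM against 24.5, 5.86 and 33.7 CPM, with full overlap. The adipocyte marker sums given above had the same order of libraries as Ces1d within each label, and their part in Ces1d was not tested. The squamous markers given above were lower in Ptpro-KO-labelled tumours, and their part in the carboxylesterase values was not tested.

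Among the aldehyde dehydrogenases 19 of 20 members were tested and 1 fell. Without overlap 2 of the 19 were higher and 4 lower, and 13 overlapped. Of all genes tested, 16.8% were higher and 15.7% lower without overlap. Aldh3b2, which in mouse oxidises long-chain aldehydes at lipid droplets, had 39.9, 33.5 and 23.3 CPM in Ptpro-KO-labelled tumours, against 77.2, 70.1 and 86.2 CPM in WT-labelled tumours. The labels were separate, and replicate 3 was lowest under the Ptpro-KO label. The means were 32.2 ± 8.38 and 77.8 ± 8.08 CPM (SD, n = 3 each), 2.42-fold lower (log2 fold change -1.27, SE 0.21, adjusted p = 0.0399 by edgeR). The call held without Ptpro-KO replicate 3, and was lost without any other library (0.0677 to 0.161). Of its 50-base stretches 24.2% occur in other genes, mainly Aldh3b3. Aldh3a1, an enzyme of stratified epithelium and cornea with the highest mean RPKM of all members, had 84.4, 306 and 155 CPM against 322, 216 and 189 CPM, with overlap (adjusted p = 0.640). Aldh4a1 of proline breakdown and mitochondrial Aldh2 were lower without overlap, with log2 fold changes of -1.004 and -0.45 (adjusted p = 0.0961 and 0.341). Aldh3a2, which oxidises fatty aldehydes, was higher without overlap at 34.2, 37.1 and 73.7 CPM against 26.0, 25.6 and 28.4 CPM (log2 fold change 0.86, SE 0.31, adjusted p = 0.161). The Aldh members not named had log2 fold changes between -0.87 and 1.27, and 0 of them were called by edgeR.

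Sulfotransferases gave 6 tested members of 18, with 0 called by edgeR. Sult2b1, which sulfates cholesterol in the epidermis and was the most abundant, had 56.3, 31.4 and 56.3 CPM in Ptpro-KO-labelled tumours, against 92.0, 106 and 79.9 CPM in WT-labelled tumours. It did not overlap between labels (log2 fold change -0.95, SE 0.26, adjusted p = 0.0950). Sult4a1, known from brain, had 0.221, 0.258 and 0.474 CPM against 2.87, 0.917 and 1.85 CPM, which are 37 reads against 174 (log2 fold change -2.56, SE 0.54, adjusted p = 0.0600 by edgeR). Sult1a1, the main phenol sulfotransferase, had 12.3, 7.44 and 5.403 CPM against 3.74, 0.478 and 5.30 CPM; replicate 3 of each label almost met.

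**Figure D3:**
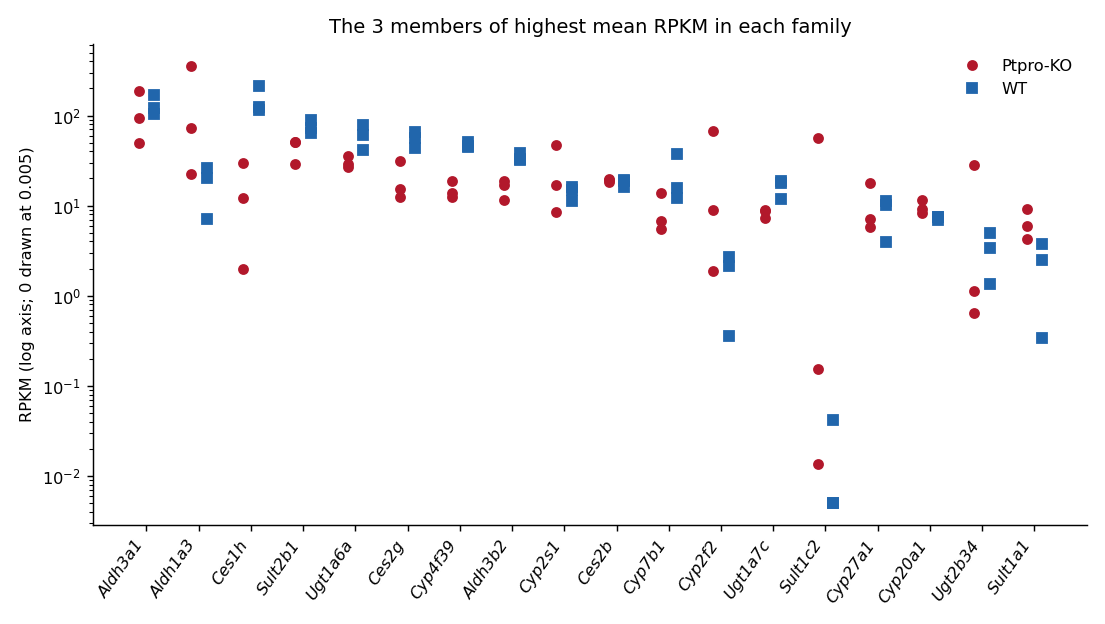
RPKM in each library, on a log axis, of the 3 members with the highest mean RPKM in each family, ordered by that mean. Red circles are Ptpro-KO-labelled tumours and blue squares WT-labelled tumours; Ces1h, Cyp4f39 and Aldh3b2 separate by label, whereas Aldh3a1 overlaps and Sult1c2 is high in 1 library.

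By RPKM, which allows levels to be compared between genes, the highest members over the 6 libraries were Aldh3a1 (mean 122 RPKM), Aldh1a3 (84.2), Ces1h (82.9), Sult2b1 (59.6), Ugt1a6a (45.4), Ces2g (37.5), Cyp4f39 (30.9) and Aldh3b2 (25.1). The deposited file lists a length of 1124 bases for Ces1h, where GENCODE gives 1870; by that length its mean would be 49.8 RPKM, below Sult2b1 and above Ugt1a6a, so its rank is uncertain. The lengths of the other 7 differed from GENCODE's by at most 2 bases. Of these 8, Cyp4f39 and Aldh3b2 passed the test of the labels. Among sterol P450 genes, Cyp7b1, which hydroxylates oxysterols, had 11.9, 28.3 and 13.8 CPM in Ptpro-KO-labelled tumours, against 36.6, 82.4 and 27.8 CPM in WT-labelled tumours. The highest value under the Ptpro-KO label slightly exceeded the lowest under WT (log2 fold change -1.44, SE 0.53, adjusted p = 0.162). Cyp27a1, the mitochondrial sterol hydroxylase, and Cyp20a1, a P450 of unknown substrate, had log2 fold changes of 0.16 and 0.26 and overlapped.

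A further set of members was high in 1 library. Of the tested members 25 were highest in Ptpro-KO replicate 3, against 17 in replicate 1 and 4 in replicate 2 of that label, and 5, 18 and 14 in WT replicates 1 to 3. The same count was not made over all genes tested, so these numbers may not be particular to the members. Sult1c2, a sulfotransferase known from stomach, had 0.277, 0.0235 and 97.9 CPM in Ptpro-KO-labelled tumours, against 0, 0.0797 and 0 CPM in WT-labelled tumours, so 3727 reads stood against 2. It did not pass the filter, which asks for reads in 3 libraries. Ugt2b34, a glucuronosyltransferase, had 3.43, 1.85 and 80.9 CPM against 11.1, 15.5 and 4.38 CPM, and Cyp2c65, known from the mouse gut, 2.74, 3.96 and 39.7 CPM against 8.67, 4.74 and 4.63 CPM. Both were high in Ptpro-KO replicate 3 alone. The log2 fold change of Ugt2b34 was 1.47 over the 6 libraries and -1.97 without that library, and that of Cyp2c65 was 1.36 and -0.84; neither passed the test in either fit. The same library was the high one for Ces1f, Ces2c, Sult1b1, Sult1d1, Cyp2c44, Ugt2b35, Ugt2a3 and Cyp2d10. Of these, Ces1f, Ces2c, Sult1b1 and Sult1d1 were tested, and their log2 fold changes were 1.54, 3.35, 2.60 and 1.11 with that library and -1.05, -1.45, -3.12 and -3.59 without it, none past the test in either fit.

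Stomach markers marked that library too, as given above. So did Hnf4a, a regulator of liver and gut genes, at 0.609, 0 and 32.7 CPM in Ptpro-KO-labelled tumours against 0.0580, 0 and 0 CPM in WT-labelled tumours, and the drug receptor Nr1i2, at 0.0554, 0 and 6.75 CPM against 0 in all 3. The small intestine markers, which also peaked there, were led by Apob at 137.1 CPM and Vil1 at 34.7 CPM, while Lct had 0.474 CPM. The liver markers peaked there too, led by Apoa1 at 68.1 CPM, while Alb had 1.16 CPM. The part of stomach, intestinal or liver tissue in these members was not tested.

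Cyp2f2, known from mouse airway, was high in another library, with 16.4, 116 and 3.32 CPM in Ptpro-KO-labelled tumours, against 4.32, 0.677 and 5.20 CPM in WT-labelled tumours. Its highest value, in Ptpro-KO replicate 2, was in the library with thyroid markers, and the part of that tissue was not tested. The 6 airway markers summed to 9.38 CPM in it and to 32.7 CPM in Ptpro-KO replicate 3. The markers differed: Foxj1 (5.72 CPM) and Scgb3a1 (1.64 CPM) were highest in replicate 2. Bpifb1 made 31.7 CPM of the sum in replicate 3 and had 1.99 CPM in replicate 2. Scgb1a1, Scgb3a2 and Sftpc had at most 0.554 CPM in any library. Cyp2e1, known from liver and fat, had 45.6, 2.81 and 7.09 CPM against 2.78, 1.63 and 62.5 CPM. It was high in 1 library of each label, and these 2 libraries also had the highest adipocyte marker sums; the part of that tissue was not tested.

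**Figure D4:**
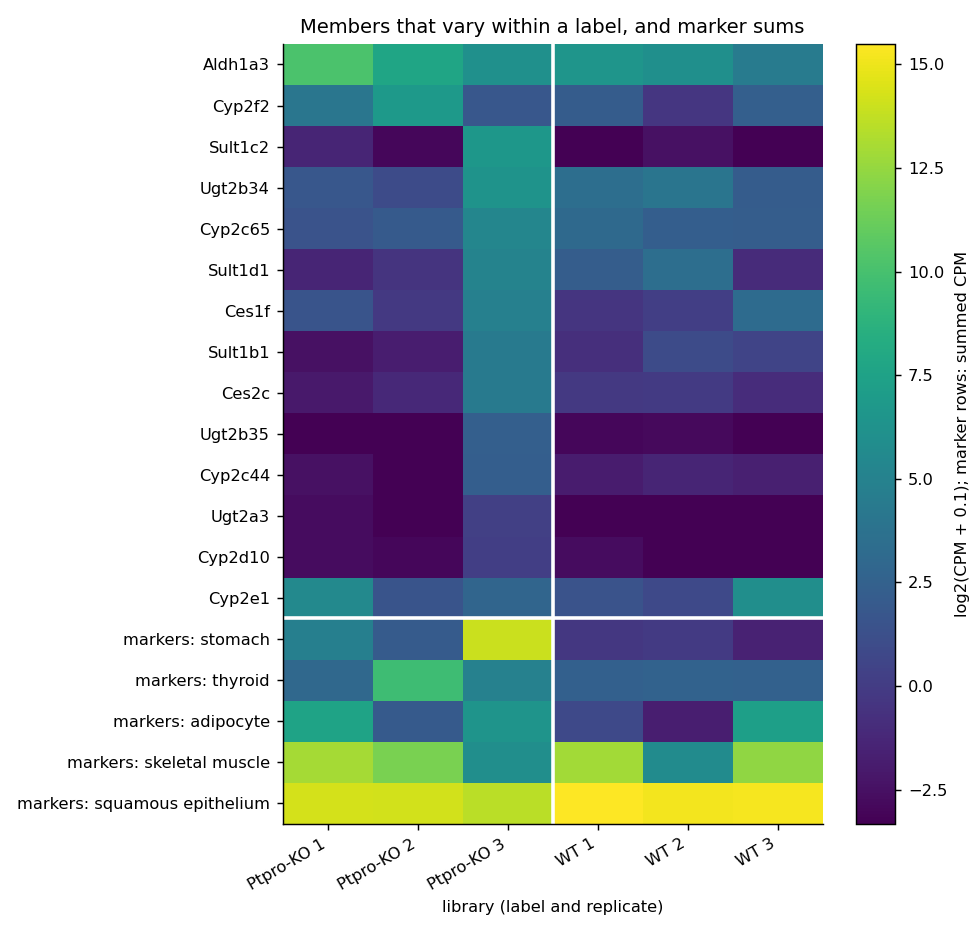
Colour gives log2(CPM + 0.1) of members that vary within a label, by library (columns, Ptpro-KO-labelled tumours on the left), with summed CPM of 5 marker lists in the rows at the bottom. Most of the members shown are brightest in Ptpro-KO replicate 3, the library in which stomach markers sum to 16410 CPM.

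Some members could not be read from the counts alone. Of 66 members with a mean of at least 1 RPKM that both deposited tables list, the median ratio of RPKM to the authors' FPKM was 0.819, and 3 members exceeded 5. Cyp4x1 had a mean of 13.0 RPKM against 0.0469 FPKM, Ces5a 8.23 against 0.145, and Ces2b 18.5 against 3.15. Their CPM hardly differed between libraries, with coefficients of variation of 6.24%, 13.0% and 4.81%, and single 50-base stretches of them occur in up to 114, 53 and 45 other genes. The levels and the fold changes of these 3 genes are therefore uncertain, and so is the lack of overlap of Cyp4x1, at 55.1, 59.2 and 55.03 CPM in Ptpro-KO-labelled tumours against 50.8, 49.9 and 54.7 CPM in WT-labelled tumours. Ugt1a6b had the lowest ratio, 0.148. Ces1h was not in this comparison.

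**Figure D5:**
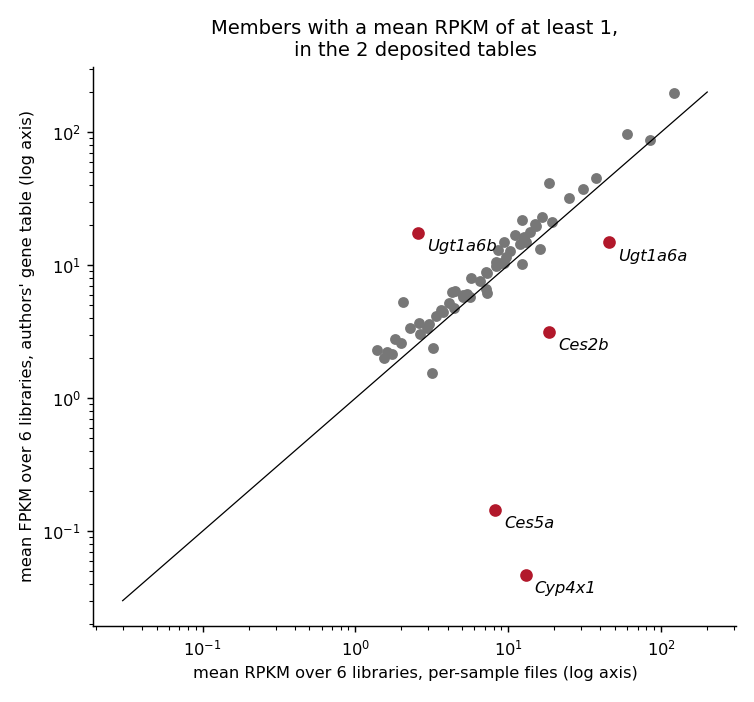
Mean FPKM in the authors' gene table against mean RPKM in the per-sample files, over the 6 libraries, on log axes, for the 66 members compared; the line marks equal values. Cyp4x1, Ces5a and Ces2b fall far below the line, and Ugt1a6a and Ugt1a6b lie on opposite sides of it.

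The genes that serve or control these enzymes were read from the same fit. Of 61 such genes outside the members 52 were tested, with 1 higher and 1 lower, which is 3.85%, against 4.10% of all genes tested. Ahr, the receptor for planar aromatic compounds that drives Cyp1 genes, had 80.7, 76.0 and 66.8 CPM in Ptpro-KO-labelled tumours, against 33.8, 29.0 and 34.4 CPM in WT-labelled tumours. It rose with little spread within labels (log2 fold change 1.20, SE 0.12, adjusted p = 0.0138 by edgeR). Its call held without Ptpro-KO replicate 3 (0.0286) and was lost without any other library, up to 0.0850 without WT replicate 3. Rxra, the partner of the retinoic acid, PPAR and drug receptors, had 83.7, 87.8 and 91.5 CPM against 142, 185 and 160 CPM. It fell (log2 fold change -0.89, SE 0.12, adjusted p = 0.0293), and its call was lost without any 1 library (0.0517 to 0.138).

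The other lists gave no call. Tiparp, Ahrr, Nqo1 and Nfe2l2, which respond to AHR in many tissues, all had negative fold changes, with 0 of 4 called by edgeR. Nqo1, a quinone reductase, had 40.4, 107 and 116 CPM in Ptpro-KO-labelled tumours, against 111, 248 and 160 CPM in WT-labelled tumours, with overlap (log2 fold change -0.98, SE 0.47, adjusted p = 0.266). Nfe2l2, a regulator of conjugating enzymes listed both here and among the regulators, had 150, 161 and 209 CPM against 289, 323 and 415 CPM, without overlap (log2 fold change -0.99, SE 0.20, adjusted p = 0.0558); it was named after its values were seen.

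Ppara, the receptor that drives Cyp4a genes in liver, had 2.99, 1.52 and 3.37 CPM against 3.97, 0.956 and 3.92 CPM and overlapped. Of 9 tested genes that respond to it, 0 were called by edgeR, and their median log2 fold change was 0.44. The reductase Por had 81.1, 103 and 116 CPM against 76.3, 83.1 and 85.1 CPM (log2 fold change 0.30, SE 0.15, adjusted p = 0.284), and of the 7 redox partners 0 were called. The 5 genes that supply sugar and sulfate donors had a median log2 fold change of 0.10 with 0 called, and of 19 other oxidation enzymes 0 were called. Adh7, the alcohol dehydrogenase of the upper digestive tract, was among these and, chosen after its values were seen, had 121, 196 and 99.5 CPM against 278, 339 and 322 CPM (log2 fold change -1.17, SE 0.27, adjusted p = 0.0707).

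Of the 87 untested members 14 had no read: Ces4a, Cyp2a22, Cyp2c39, Cyp2c40, Cyp2g1, Cyp2j7, Cyp2j11, Sult2a3, Sult2a4, Sult2a6, Sult2a7, Sult3a1, Ugt2b37 and Ugt2b38. Cyp3a11, the main P450 of drug oxidation in mouse liver, had 27 reads in the 3 Ptpro-KO-labelled tumours and 16 in WT-labelled tumours. Of the 7 Cyp3a members 1 was tested, Cyp3a13, at 18.4, 15.04 and 21.3 CPM against 30.01, 24.6 and 40.6 CPM, without overlap (log2 fold change -0.80, SE 0.23, adjusted p = 0.106). Of 9 Ugt2 members 1 and of 15 Cyp2c members 2 were tested. The steroid P450 genes Cyp17a1, Cyp19a1 and Cyp11b1 had 36, 10 and 24 reads over all 6 libraries.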

How the data were processed

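RNA of 6 tumours, 3 libraries per label, was sequenced; each library was taken as 1 mouse, from the 3 mice per group of the design text. The submitters' processing notes name the aligner Bowtie 0.12.2 and the build mm10. The deposited per-sample files hold read counts per Ensembl transcript and RPKM, and the authors' gene table holds FPKM, in which 2 further columns were not used. The sources used here do not say how shared reads were assigned or whether libraries kept strand.

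Counts were summed per symbol, filtered with filterByExpr (at least 10 scaled counts in 3 libraries, 15 in total), TMM-scaled and fitted by the edgeR 4.0.16 quasi-likelihood test (R 4.3.3) as Ptpro-KO-labelled minus WT-labelled, with Benjamini-Hochberg adjustment over all 17663 genes at 0.05. CPM use the TMM library sizes, and the SE is the log2 fold change over the root of F. All adjusted p values are from edgeR unless another tool is named. The biological coefficient of variation was 0.398, so the spread between mice limits all but rare transcripts. No 2 libraries under 1 label were duplicates: their chi-square over its degrees of freedom was 66.9 to 307. The fit was tested on simulated counts.

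Named members were those called, the 3 with the highest mean RPKM per family, up to 20 with labels that do not overlap and at least 2-fold change by smallest p, and those at least 10 times higher in 1 library than in the others of its label, at 1 CPM or more; Aldh1a1, Aldh1a2, Cyp26b1 and other names outside these rules were chosen after their values were seen. The members and lists were chosen with earlier results of these data known. Stretches of 50 bases were compared among GENCODE M21 transcripts (GRCm38, the assembly of mm10), which also gave positions, and promoters of 133 members came from RefSeq. Alternatives were DESeq2 1.42.0, other scalings, limma 3.58.1 on log2(FPKM + 1) and log2(FPKM + 0.1), no filter, a replicate block, a sex term, libraries left out and summed symbols.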

Additional observations from a re-analysis of the deposited data

How the results depend on the processing

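Of 61 genes followed across the settings, 14 changed sign under at least 1, none of them called by edgeR (adjusted p 0.102 to 0.986 where the sign changed). The replicate block gave log2 fold changes of 0.63 for Cyp2e1, -0.74 for Sult1b1, -2.27 for Sult1d1 and -0.77 for Ugt2b34. The sex term gave -0.20 for Cyp27a1, -0.58 for Sult1d1 and -0.20 for Ugt2b34. Leaving out both libraries numbered 1 gave 0.15 for Aldh3a1 and -0.37 for Cyp27a1, and total counts 0.076 for Ces2b. On log2(FPKM + 1) Cyp2e1 had 0.28 and Ces1d 0.14, and on log2(FPKM + 0.1) Cyp2e1 had 0.37, Ces1d 0.21, Ppara 0.052, Sult1d1 -0.36 and Ugt2b34 -0.057. Leaving out 1 library moved Ces1f between -1.05 and 3.69, Ces2c between -1.45 and 3.89, Cyp2c65 between -0.84 and 1.83, Cyp2s1 between -0.27 and 1.03, Sult1b1 between -3.12 and 3.15, Sult1d1 between -3.59 and 2.20 and Ugt2b34 between -1.97 and 1.997, each lowest without Ptpro-KO replicate 3. It moved Cyp2e1 between -2.19 and 3.05, Cyp27a1 between -0.56 and 0.46, Ppara between -0.59 and 0.10, Cyp26b1 between -0.66 and 0.074 and Ces1d between -0.83 and 0.22. Counts of calls moved as follows. DESeq2 called 1682 genes higher and 1478 lower, 6 and 22 members, and 4 and 5 of the genes outside the members. Scaling by total counts called 630 genes higher, and 17 members were then higher without overlap, a count without a share of all genes beside it. The replicate block called 133 genes higher and 104 lower, 0 and 2 members, and 0 outside genes lower; a sex term called 64 and 122 genes, 0 and 2 members, and 0 outside genes lower. The members left under the block and under the sex term were Cyp4f39 and Ces2f. Deviations of same-numbered libraries correlated at 0.539, 0.0803 and -0.243 for replicates 1 to 3, and those of differently numbered libraries at -0.614 to 0.408. Numbers 2 and 3 thus showed no pairing, while the value of number 1 was the highest across labels. Whether the libraries numbered 1 shared a batch was not tested. Without both libraries numbered 1, edgeR called 0 genes, members and outside genes in either direction. In that fit 2971 of 17611 genes and 24 of 82 members had an unadjusted edgeR p under 0.05. On log2(FPKM + 1) limma called 1 member higher and 2 outside genes lower, and on log2(FPKM + 0.1) 2 outside genes lower. Cyp4a10 lost its call with RLE size factors, without the filter and on log2(FPKM + 1), Ugt1a2 with total counts and without the filter, Ugt1a7c on both FPKM scales and Cyp26a1 on log2(FPKM + 1). Leaving out 1 library gave 0 to 253 genes higher and 0 to 243 lower, 0 to 1 members higher and 0 to 5 lower, and 0 to 2 outside genes higher and 0 lower. The cause of these moves was not tested. With 3 mice per label the spread between mice limits the calls, and low members such as Cyp26a1 and Cyp2w1 are also limited by their reads.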
